A study of Mus musculus with 8 samples.

Results

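Islet macrophage genes were read from arrays of islets whose β-cells had lost Fbln5. The list holds 35 genes used to recognise macrophages or their work, of 22911 genes that the arrays measure by name, and each gene was read by its probe with the highest mean signal over the 8 arrays. The list was given by gene name, with earlier results of these data known. All 35 were measured. The study asked how the loss of Fbln5, a secreted matrix protein, from β-cells alters the islet, and the comparison here shows whether the RNA of the resident macrophages differed with it. Control mice carried Fbln5-floxed alleles, with loxP sites around exons 1a and 1b, and no Cre. The βFbln5KO mice carried the same alleles together with Ins1-Cre, which uses the promoter of the mouse insulin 1 gene, so the deletion is aimed at β-cells and not at macrophages. All mice were 11 weeks old. RNA of 150 islets per extraction, taken right after isolation, gave 4 control and 4 βFbln5KO samples, each on its own one-colour Agilent array. The labels do not say how many mice each extraction pooled.

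Macrophages live in every islet and lie along its vessels. They depend on the receptor Csf1r, and their identity rests on the transcription factor PU.1, encoded by Spi1. They take up dying cells through scavenger and phosphatidylserine receptors, tag debris with C1q, the first component of the complement cascade, and read antibody through Fc receptors that signal by way of the adaptors Fcer1g and Tyrobp. In islets they take up β-cell granules and show peptides on MHC class II molecules, heterodimers of an alpha and a beta chain that the invariant chain Cd74 escorts. Several of these genes are not particular to macrophages: dendritic cells and B cells carry MHC class II, and Apoe is made by many cell types.

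Promoter sequence from RefSeq (mouse GRCm38.p6) was at hand for 26 of the 35 genes. The 250 bases before the start of Cd5l, the one gene that passed the adjusted threshold, and of 2 of the MHC class II genes are shown, because these are the genes to which the comparison returns most. For Cd5l (chr3:87357631-87357880, plus strand) the capitals mark the palindrome TGCTGANNTCAGCA, the mirrored arms of a Maf recognition element. For H2-Aa (chr17:34287824-34288073, minus strand) and H2-Eb1 (chr17:34305617-34305866, plus strand) the capitals mark ATTGG, the core of the Y box of MHC class II promoters.
Cd5l: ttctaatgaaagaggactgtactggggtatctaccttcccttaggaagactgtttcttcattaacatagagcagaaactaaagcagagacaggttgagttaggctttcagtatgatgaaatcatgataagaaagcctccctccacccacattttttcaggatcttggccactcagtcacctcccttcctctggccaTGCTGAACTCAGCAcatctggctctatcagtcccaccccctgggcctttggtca
H2-Aa: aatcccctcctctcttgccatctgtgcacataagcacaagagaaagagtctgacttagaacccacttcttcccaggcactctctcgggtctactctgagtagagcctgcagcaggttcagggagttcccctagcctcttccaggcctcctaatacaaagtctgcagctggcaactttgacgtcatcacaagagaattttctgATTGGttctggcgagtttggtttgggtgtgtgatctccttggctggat
H2-Eb1: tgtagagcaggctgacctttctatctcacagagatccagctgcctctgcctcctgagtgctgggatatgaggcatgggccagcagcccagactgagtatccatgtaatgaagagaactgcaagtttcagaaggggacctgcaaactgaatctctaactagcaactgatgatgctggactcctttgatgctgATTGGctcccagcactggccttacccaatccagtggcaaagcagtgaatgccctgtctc

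The Maf palindrome was looked for after the Cd5l sequence had been read. Its presence in Cd5l was thus fixed beforehand, and its rarity carries no weight as evidence. On either strand it occurred in 2 of 27025 promoters of this length, 0.00740%, and Cd5l was the sole one of the 26. It lies 54 to 41 bases before the start of Cd5l. The Y box core occurred on either strand in 10 of the 26 (38.5%) and in 37.5% of all promoters, about the same share. GAGGAA, the core that PU.1 binds, occurred on either strand in 16 of the 26 (61.5%), among them Cd5l, C1qb, C1qc, Fcgr1, Fcgr3, Itgam, Ptprc and Laptm5, and in 25.9% of all promoters. These are matches of letters and not sites shown to be bound. The genes also lie together in places. C1qa, C1qb and C1qc lie within chr4:136880126-136898844, Itgam and Itgax within chr7:128062640-128150657, H2-Ab1, H2-Aa and H2-Eb1 within chr17:34263227-34316674, and Spi1 and Nr1h3, with other genes between them, within chr2:91082374-91202829 (GRCm38.p6).

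Values are log2 signals relative to the 75th percentile of the array, so a value of 1 is a signal 2 times that percentile, and they can be compared between arrays for 1 probe but not between probes. A probe counts as detected on an array where the scanner software called it well above background. Over the series, 52.6% to 58.8% of spots were detected per array, and any 2 arrays correlated with a Pearson r of 0.983 to 0.994. The lowest log2 signal called detected was -5.01 to -4.79 in control and -4.70 to -4.19 in βFbln5KO. Genes that were detected on no array had a median log2 difference of 0.48 (5712 genes), against -0.01 for the 13650 genes detected on all 8, so that dim probes as a class read higher on the βFbln5KO arrays. The 4 control arrays filled one row of the slide and the 4 βFbln5KO arrays the other, so that genotype and slide row cannot be told apart. Fbln5 itself read -1.70, -1.32, -2.05 and -1.83 on control arrays 1 to 4 and -2.74, -2.40, -2.38 and -1.37 on the arrays labelled βFbln5KO 1 to 4. It was below every control array on 3 of the 4, while the array labelled βFbln5KO 4 lay inside the control range (limma log2 difference -0.50 ± 0.29 (SE), adjusted p = 0.342). Deletion in β-cells leaves the Fbln5 RNA of other islet cells, and where the probe lies relative to the deleted exons was not checked.

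The signal of macrophages was present on all 8 arrays. Of the 35 genes, 26 were detected on every array, among them Csf1r, Adgre1 (an adhesion receptor used to mark mouse macrophages), Cd68, Ptprc (CD45), Aif1, Trem2 and all 3 C1q chains. Another 6 (Spi1, Cd86, Cd5l, Cd163, Mrc1 and Fcgr1) were detected on 1 to 4 arrays. Marco, Timd4 and Vsig4, receptors typical of resident macrophages in spleen, peritoneum and liver, were detected on none. With limma, 1 of the 35 genes passed the adjusted threshold of 0.05, Cd5l, which was higher in βFbln5KO; none was lower. Over all genes 0.0131% passed it in either direction. At an unadjusted p under 0.05, 2 genes were higher (Cd5l and Timd4) and 4 were lower (Ptprc, H2-Eb1, Laptm5 and Aif1). The shares over all genes were 16.8% higher and 2.68% lower. Among genes detected on all 8 arrays they were 1.01% and 3.08%, where 0 of the 26 macrophage genes were higher and 4 lower. The median log2 difference was -0.05 over the 35 genes and 0.02 over all named genes. In islet RNA, fewer macrophages and less RNA per macrophage cannot be told apart.

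**Figure D1:**
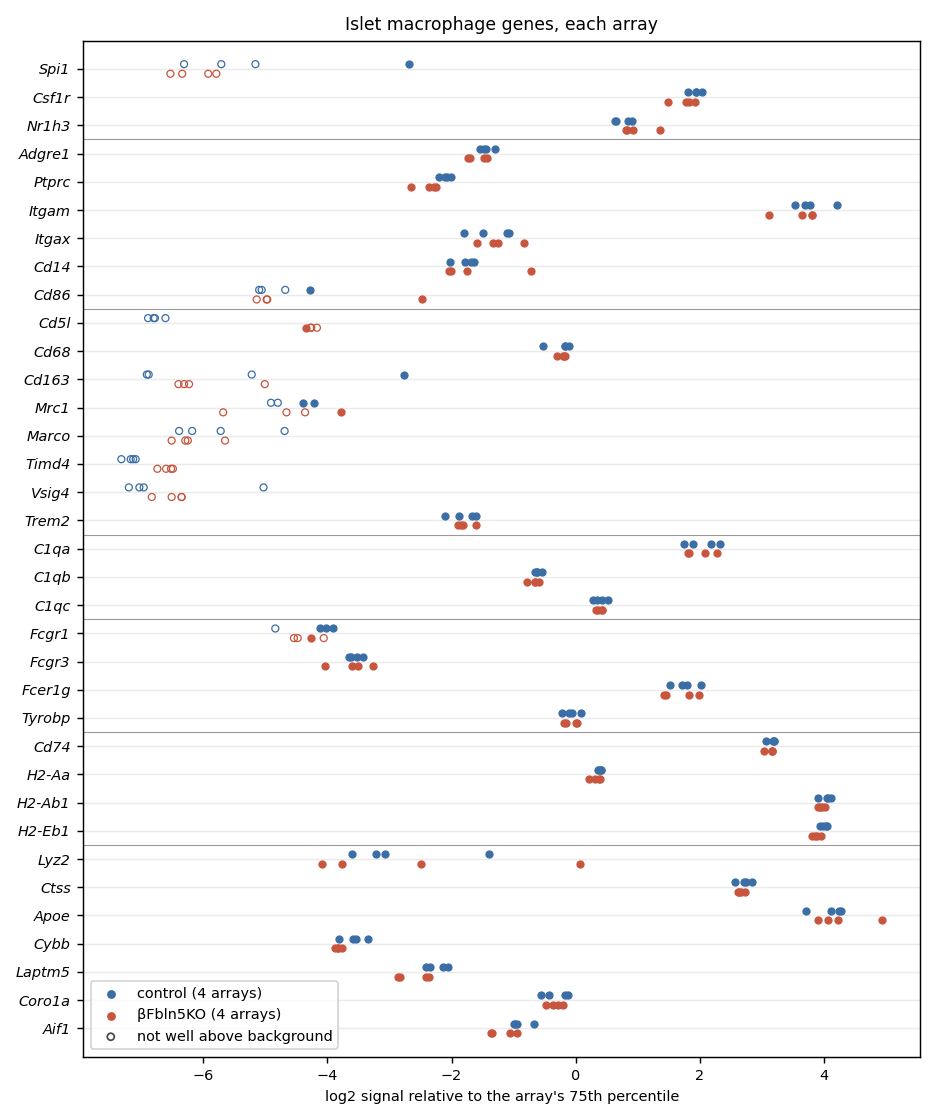
Log2 signal of the 35 macrophage genes relative to the 75th percentile of each array, 1 point per array, control in blue and βFbln5KO in red, with open points where the probe was not well above background and lines between groups of genes by role. For most genes the points of the groups overlap; Cd5l is the gene whose groups stand farthest apart, with 1 filled point among 8.

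Cd5l, also called AIM, is a scavenger receptor-like protein that macrophages secrete and that keeps them from dying; it lies on chromosome 3 from 87357881 to 87371074. Its log2 signal was -6.89, -6.78, -6.61 and -6.80 on control arrays 1 to 4 and -4.17, -4.26, -4.27 and -4.34 on βFbln5KO arrays 1 to 4. All 4 βFbln5KO arrays lay above all 4 control arrays, and the spread within each group was small beside the gap. The means were -6.77 ± 0.12 (SD, n = 4) and -4.26 ± 0.07 (SD, n = 4), a log2 difference of 2.51 ± 0.20 (SE; limma adjusted p = 0.00638; 95% interval 2.06 to 2.96). The exact two-sided permutation p was 0.0286, the smallest that 4 against 4 arrays can give.

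The control level of Cd5l is a bound and not a measurement. The probe was detected on no control array and on 1 βFbln5KO array, the fourth; on the other 3 it lay at about the lowest detected signal of the array. No fold is given for it, since 3 of the 4 βFbln5KO values were not detected either and the βFbln5KO mean lay under the highest of the 8 lowest detected signals. Before scaling, the processed signal was 7.25 to 9.19 on control and 46.9 to 58.4 on βFbln5KO arrays, while the median brightness of the spot, from which no background had been taken, was 82.1 ± 11.2 (SD, n = 4) and 132 ± 15.4 (SD, n = 4), a ratio of 1.60. The local background around the spot differed little, with a ratio of 1.01. A less strict mark of the scanner software, positive and significant, was set on 2 control and 4 βFbln5KO arrays.

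The call depended on the handling of dim signals and on other choices. It was not kept with the authors' deposited ratios or with the replicate number as a block in the fit. When normexp was used to correct the background, the log2 difference was 0.50 (adjusted p = 0.754), and with all signals under the common detection level raised to it, 0.0033 (adjusted p = 1.0). The adjusted p was 0.0604, 0.0608 and 0.0631 without control array 1, 2 or 4, at differences of 2.47 to 2.51. Of 6654 genes detected on no control array and at most 1 βFbln5KO array, 52.5% had groups that did not overlap, with βFbln5KO higher; their median log2 difference was 0.49, 20 genes including Cd5l reached the difference of Cd5l, and Cd5l was the only one that passed the adjusted threshold.

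**Figure D2:**
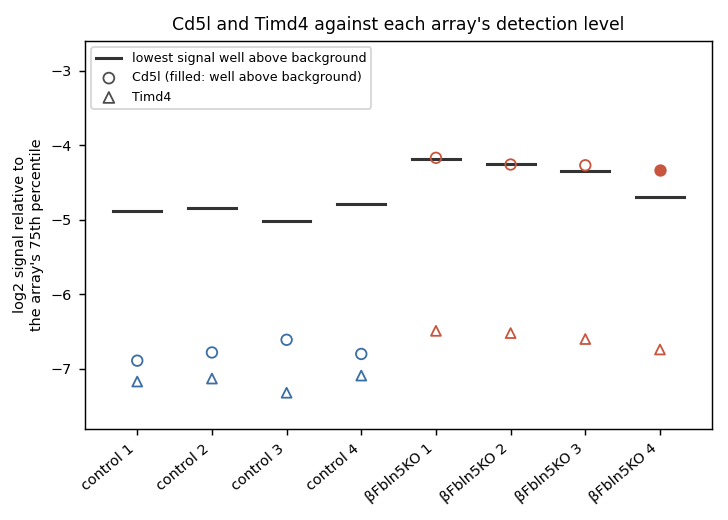
Log2 signal of Cd5l (circles) and Timd4 (triangles) on each array, with a bar at the lowest signal that was well above background on that array. Cd5l lies far under the bar on the 4 control arrays and at it or just above it on the βFbln5KO arrays, where array 4 alone is filled; Timd4 lies under the bar on all 8.

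The genes on either side of Cd5l were read to see whether the region moved. None of the 10 nearest named genes passed the adjusted threshold. Fcrl5, Etv3, Arhgef11, Dclk2, Kirrel and Cd1d1 were detected on all 8 arrays, with log2 differences of -0.0015, 0.06, 0.05, -0.01, -0.18 and 0.35. Gm31879 and Fcrl1, the nearest on either side, were detected on no array and differed by 0.96 and 0.85; Fcrls, also detected on none, differed by -0.04, and Lrrc71, detected on 3 control arrays, by -0.90.

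The scavenger and phosphatidylserine receptors of the list showed no such gap. Cd68, a lysosomal glycoprotein of macrophages, read -0.52, -0.18, -0.18 and -0.11 on control and -0.17, -0.20, -0.19 and -0.30 on βFbln5KO arrays. The groups overlapped, and the 95% interval of the log2 difference ran from -0.18 to 0.24. Trem2, a lipid receptor of tissue macrophages, had an interval of -0.28 to 0.32. Timd4, which binds phosphatidylserine, read -7.17, -7.13, -7.32 and -7.09 on control and -6.49, -6.52, -6.60 and -6.74 on βFbln5KO arrays. Its groups did not overlap, but it was detected on no array, and its difference of 0.59 ± 0.11 (SE; limma adjusted p = 0.0728) was near that of the whole class of undetected genes, 0.48. Vsig4, a complement receptor of liver macrophages, and Marco, which binds bacteria, were likewise undetected, with differences of 0.04 and -0.43. Each was highest on a single control array, Vsig4 at -5.03 on array 2 and Marco at -4.69 on array 1. Cd163, the receptor for haemoglobin bound to haptoglobin, was detected on control array 4 only, at -2.76, and Mrc1, the mannose receptor, on control arrays 1 and 4 and βFbln5KO array 4.

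Of the lineage genes, Csf1r was detected throughout. It read 1.81, 1.93, 2.03 and 1.94 on control and 1.92, 1.83, 1.49 and 1.77 on βFbln5KO arrays. The lowest βFbln5KO array was the third, and 2 of 4 βFbln5KO arrays lay under every control array (log2 difference -0.17 ± 0.09 (SE), limma adjusted p = 0.307; 95% interval -0.39 to 0.04). The second Csf1r probe differed by -0.28 ± 0.11 (SE). Nr1h3, the liver X receptor alpha that turns on cholesterol export in macrophages, read 0.84, 0.65, 0.63 and 0.91 on control and 1.35, 0.93, 0.82 and 0.81 on βFbln5KO arrays. The 0.22 ± 0.13 (SE) difference was led by βFbln5KO array 1 (limma adjusted p = 0.351). Spi1 was detected on control array 3 only, at -2.69, with the other 7 arrays between -6.53 and -5.16. No fold could be given for it, and the difference went from -1.18 to -0.42 without that array.

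Read by their brightest probes, surface genes of leukocytes and myeloid cells held the only macrophage gene detected on all 8 arrays whose groups did not overlap. Ptprc, the CD45 phosphatase of all leukocytes, read -2.20, -2.07, -2.01 and -2.11 on control and -2.25, -2.28, -2.36 and -2.66 on βFbln5KO arrays. Each βFbln5KO array was under each control array, by little in the case of arrays 1 and 2. The log2 difference was -0.29 ± 0.12 (SE; limma adjusted p = 0.185; 95% interval -0.56 to -0.01). Of all genes detected on all 8 arrays, 2.07% had groups that did not overlap in this direction, and of the 26 macrophage genes 1 did. A second Ptprc probe was detected on no array.

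Adgre1 differed by -0.15 (95% interval -0.38 to 0.08), with βFbln5KO arrays 1 and 3 under all control arrays. Itgam, the alpha chain of the complement receptor CR3, differed by -0.21 by its brightest probe and by -0.02 by its other probe, and Itgax (CD11c) by 0.12. By their brightest probes, control array 1 held the highest Itgam value (4.21) and the lowest Itgax value (-1.80) of all arrays. Cd14, the lipopolysaccharide co-receptor, stood between -2.04 and -1.64 on 7 arrays and at -0.72 on βFbln5KO array 1, so that its difference was 0.15 with and -0.15 without that array. A second Cd14 probe read -1.81 on βFbln5KO array 1 and at most -1.62 on any array. Cd86, a ligand that costimulates T cells, was detected by its brightest probe on control array 3 and on βFbln5KO array 4, where it read -2.48 against -5.14 to -4.28 on the other 7. Another Cd86 probe was detected on βFbln5KO array 3 alone, at -1.52 against -7.14 to -6.29 on the other 7.

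The C1q chains, which only work as a joined complex, differed little between the groups. C1qa read 2.18, 1.75, 1.89 and 2.33 on control and 2.08, 1.81, 2.28 and 1.83 on βFbln5KO arrays. C1qb lay between -0.65 and -0.55 on control and between -0.79 and -0.59 on βFbln5KO arrays. C1qc lay between 0.28 and 0.52 and between 0.32 and 0.43. The groups overlapped for all 3 chains, with log2 differences of -0.04, -0.06 and -0.01 and 95% intervals that reached from -0.37 to 0.29 for C1qa, from -0.21 to 0.08 for C1qb and from -0.15 to 0.14 for C1qc.

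None of the Fc receptors and their adaptors passed either threshold. Tyrobp (DAP12), the adaptor of Trem2 and many other myeloid receptors, read -0.22, 0.08, -0.11 and -0.06 on control and 0.01, 0.02, -0.16 and -0.19 on βFbln5KO arrays. The log2 difference was -0.00024 (95% interval -0.19 to 0.19). Fcer1g, the gamma chain that Fc receptors share, differed by -0.09 (95% interval -0.42 to 0.25) and Fcgr3, a low-affinity receptor for IgG, by -0.05 (95% interval -0.53 to 0.43). Fcgr1, the high-affinity receptor for IgG, was detected on 3 control arrays and 1 βFbln5KO array and lay between -4.84 and -3.91 on all 8 (log2 difference -0.11, 95% interval -0.73 to 0.51).

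**Figure D3:**
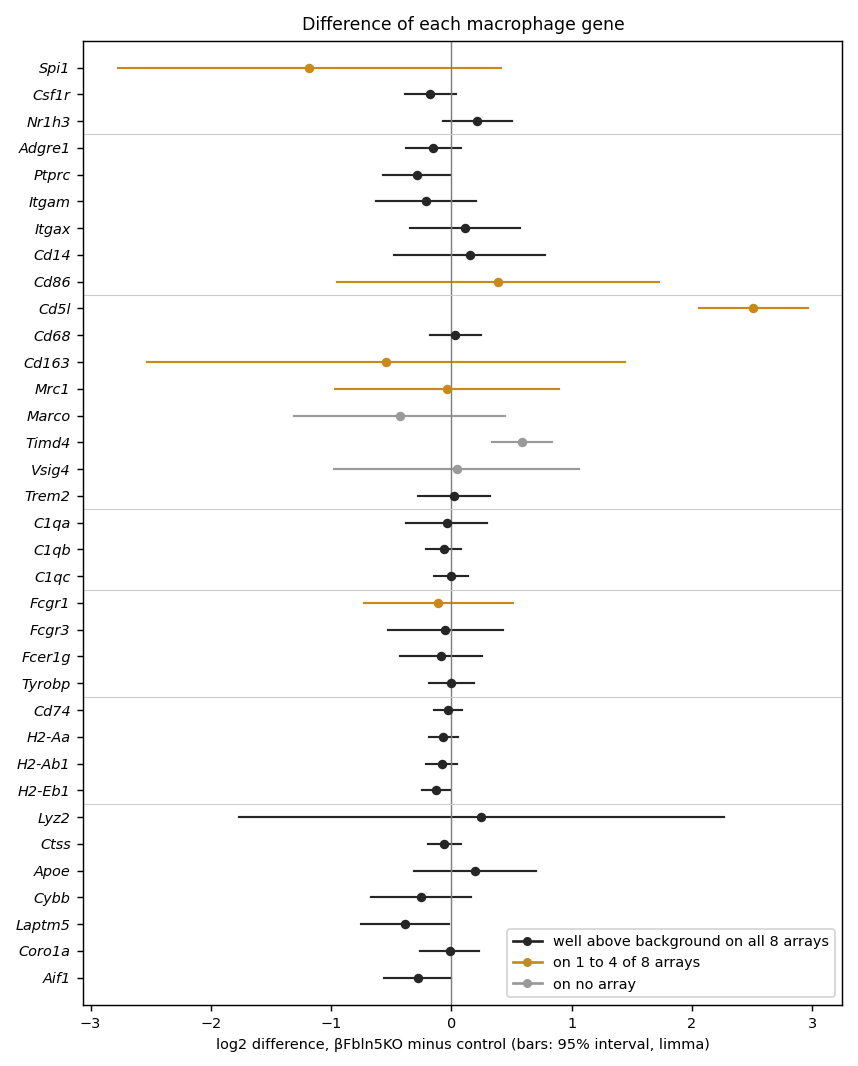
Log2 difference of each macrophage gene, βFbln5KO minus control, with the 95% interval of the limma fit as bars, in black for genes well above background on all 8 arrays, in orange for those on 1 to 4 arrays and in grey for those on none. The black points lie between -0.39 and 0.25; Cd5l, in orange, is at 2.51.

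The 4 MHC class II genes all read slightly lower in βFbln5KO, and none passed the adjusted threshold. H2-Eb1, the beta chain of the I-E molecule, read 3.99, 3.93, 4.05 and 4.04 on control and 3.80, 3.86, 3.88 and 3.95 on βFbln5KO arrays. Of the 4 βFbln5KO arrays 3 lay under every control array, and array 4 lay just above control array 2. The log2 difference was -0.13 ± 0.05 (SE; limma adjusted p = 0.146; 95% interval -0.25 to -0.02), which is 0.913 times the control signal. H2-Ab1, the beta chain of I-A, differed by -0.08 by its brightest probe and by -0.09, -0.10 and -0.11 by its other 3 probes, which were all detected on all 8 arrays. By the probe that differed by -0.10 the groups did not overlap, with 3.03 to 3.09 on control and 2.91 to 3.0 on βFbln5KO arrays. H2-Aa, the alpha chain of I-A, differed by -0.07 and Cd74 by -0.03. The linear signal summed over the 4 genes was 40.7 to 44.2 times the 75th percentile on control and 39.8 to 40.9 times on βFbln5KO arrays, ranges that overlap through control array 1 and βFbln5KO array 2.

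Of the 12 other genes of MHC class II presentation, 1 was lower at an unadjusted p under 0.05, Ciita, and 1 that was detected on no array, H2-DMb2, was higher. Over all genes the shares were 2.68% lower and 16.8% higher. Ciita encodes the transactivator without which class II genes are not expressed. It read -1.95, -1.90, -1.74 and -1.79 on control and -2.40, -1.95, -2.25 and -2.45 on βFbln5KO arrays. Array 2 of βFbln5KO lay inside the control range and the other 3 below it (log2 difference -0.42 ± 0.13 (SE), limma adjusted p = 0.0782). The peptide loader subunits H2-DMa and H2-DMb1 differed by -0.09 and -0.23, and the subunits of the RFX factor that binds these promoters, Rfx5, Rfxank and Rfxap, by 0.13, -0.11 and 0.04.

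**Figure D4:**
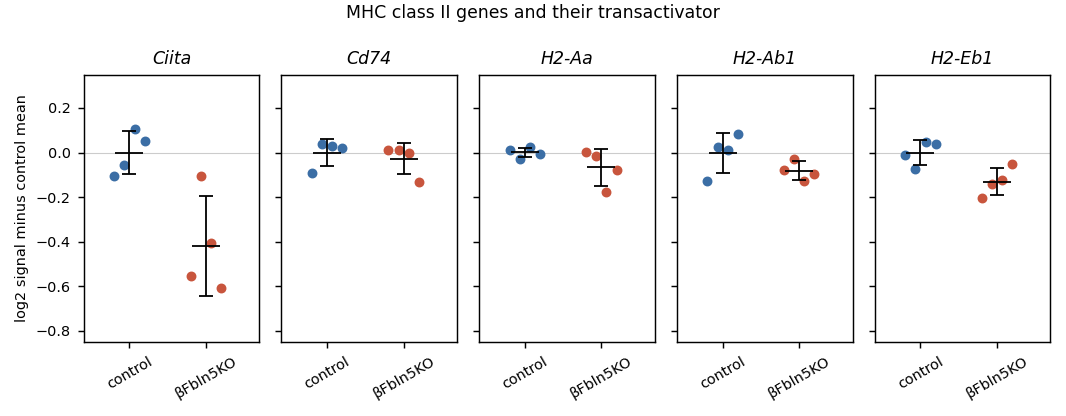
Log2 signal of Ciita and of 4 MHC class II genes on each array, minus the control mean of the gene; points are arrays (4 control in blue, 4 βFbln5KO in red), the bar is the mean and the whiskers 1 SD. The βFbln5KO mean lies at -0.42 for Ciita and between -0.13 and -0.03 for the others.

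The remaining genes, of lysosome, secretion, oxidase and cytoplasm, held 2 of the 4 lower genes. Laptm5, a lysosomal membrane protein of blood cells, read -2.34, -2.05, -2.14 and -2.41 on control and -2.42, -2.37, -2.83 and -2.87 on βFbln5KO arrays. Arrays 3 and 4 of βFbln5KO were the lowest, and array 2 lay inside the control range (log2 difference -0.39 ± 0.16 (SE), limma adjusted p = 0.178). Aif1, the calcium-binding protein IBA1 of macrophages, read -0.98, -0.68, -1.0 and -0.94 on control and -1.06, -0.94, -1.37 and -1.35 on βFbln5KO arrays. Here, too, arrays 3 and 4 were the lowest (log2 difference -0.28 ± 0.12 (SE), limma adjusted p = 0.200). Cybb, the catalytic subunit of the phagocyte oxidase, differed by -0.25 (95% interval -0.67 to 0.16), with 3 of 4 βFbln5KO arrays under all control arrays. Ctss, the protease that cleaves the invariant chain, differed by -0.06 (95% interval -0.20 to 0.08) and Coro1a, an actin regulator of leukocytes, by -0.01 (95% interval -0.26 to 0.23). Without control array 3 or without βFbln5KO array 3, none of the 4 lower genes kept an unadjusted p under 0.05.

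Lyz2, the lysozyme of myeloid cells and a common driver of macrophage Cre lines, varied more than any other of the 26 genes. It read -1.39, -3.07, -3.60 and -3.21 on control and 0.07, -2.49, -3.77 and -4.08 on βFbln5KO arrays. Array 1 was the highest of either group, and the 8 arrays spanned a 17.7-fold range. The log2 difference of 0.25 ± 0.89 (SE; limma adjusted p = 0.916) became -0.63 without βFbln5KO array 1 and 0.72 without control array 1.

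Apoe, which carries lipid and is a target of the liver X receptor, read 4.28, 4.24, 3.71 and 4.11 on control and 4.23, 3.90, 4.06 and 4.94 on βFbln5KO arrays. Array 4 of βFbln5KO was the highest, by its second probe too (3.00 against 1.68 to 2.28 on the other 7). The log2 difference was 0.20 ± 0.22 (SE; limma adjusted p = 0.685) and -0.02 without that array. On the same array genes of hepatocytes stood apart, which was noticed in the values and then read from a list of 10 such genes. Of these 10, 9 were highest on βFbln5KO array 4, and Apoc3 was not (-3.72 there, -4.09 to -3.18 on the other 7). Alb, the serum albumin gene, read 3.25 on βFbln5KO array 4 and -6.49 to -3.57 on the other 7. Ahsg (fetuin-A) read 2.88 against -6.88 to -4.53, and Fabp1, the fatty acid-binding protein of liver, 2.69 against -7.04 to -6.25. The linear signal summed over the 10 genes was 55.4 times the 75th percentile on βFbln5KO array 4 and 3.42 to 4.58 times on the other 7. The secreted Cd5l and the receptor Mrc1 were detected on that array and on no other βFbln5KO array. Mrc1 was highest there (-3.78) and Cd5l lowest of the 4 (-4.34). Cd163 read -5.01 there against -6.40 to -6.23 on the other βFbln5KO arrays, undetected on all 4, and Timd4, Vsig4 and Marco were undetected on it. The part of the hepatocyte signal in the macrophage values of that array was not tested.

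**Figure D5:**
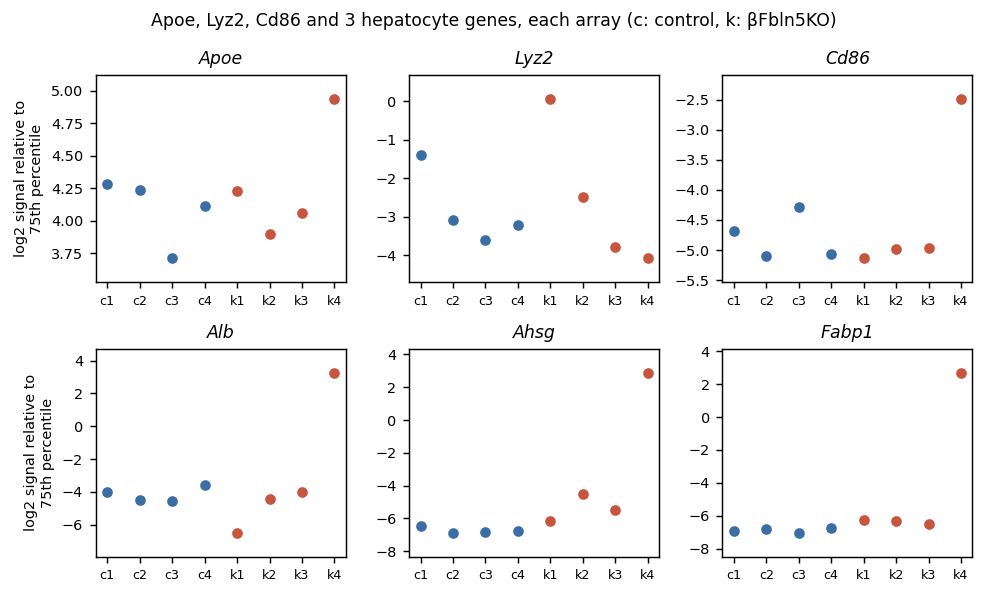
Log2 signal relative to the 75th percentile of the array for Apoe, Lyz2 and Cd86 and for the hepatocyte genes Alb, Ahsg and Fabp1, 1 point per array (c1 to c4 control in blue, k1 to k4 βFbln5KO in red), each panel with its own scale. Apoe, Cd86 and the 3 hepatocyte genes are highest on k4, and Lyz2 is highest on k1.

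Beyond the 35, 29 other macrophage genes were measured. Of these, 2 were lower at an unadjusted p under 0.05, among them Cx3cr1, and 3 higher, Siglec1, Msr1 and Gpnmb, which were detected on no array. Over all genes the shares were 2.68% lower and 16.8% higher. None of the 29 passed the adjusted threshold, and their median log2 difference was -0.08. Cx3cr1, the fractalkine receptor of resident macrophages, read 0.12, 0.24, 0.15 and 0.21 on control and -0.16, 0.07, -0.07 and 0.07 on βFbln5KO arrays. Its groups did not overlap (log2 difference -0.20 ± 0.07 (SE), limma adjusted p = 0.0982). Ms4a7, a membrane protein of tissue macrophages, likewise had no overlap, at -0.10. Among all genes detected on all 8 arrays, 2.07% had groups that did not overlap with βFbln5KO lower.

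Partners of the macrophage receptors were read from fixed lists. Beside the counts below, 2.68% of all genes were lower and 16.8% higher at an unadjusted p under 0.05. Of 13 ligands and signalling genes of Csf1r, 1 detected gene was lower at an unadjusted p under 0.05, Pik3r1, a regulatory subunit of PI3 kinase (log2 difference -0.22, limma adjusted p = 0.172), and 2 undetected genes, Csf2 and Fgr, were higher. Csf1 and Il34, the ligands of Csf1r, differed by -0.09 and -0.11. Of 15 partners and targets of the liver X receptors none passed, and Lpl, lipoprotein lipase, had the smallest p among those detected on all 8 arrays (-0.27, limma adjusted p = 0.292). The cholesterol exporters Abca1 and Abcg1 differed by 0.06 and -0.12. Of 12 complement genes outside C1q, 2 undetected ones, C5ar1 and Cfd, were higher, and C1s1, the protease of the C1 complex, had the smallest p among the detected (0.33, limma adjusted p = 0.329). C3 was highest on βFbln5KO array 4, at 2.69 against 1.03 to 1.85 on the other 7.

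Other cells that an islet preparation can hold were read in the same way. Detected on all 8 arrays were 6 of 8 monocyte genes, 2 of 8 dendritic cell genes (Cd209a and Siglech), 2 of 7 neutrophil genes (Elane and Csf3r), 5 of 10 T and NK cell genes (Cd3e, Cd4, Cd8b1, Cd2 and Lck), 1 of 8 B cell genes (Cd22) and 1 of 6 mast cell genes (Kit). Detected on no array were S100a8, S100a9, Mpo, Retnlg and Cxcr2 of the neutrophil list, Cd3g and Nkg7 of the T and NK list, Ms4a1 and Blk of the B cell list, Cpa3, Mcpt4, Cma1 and Fcer1a of the mast cell list and Xcr1 of the dendritic list. No gene of the monocyte, dendritic, neutrophil, T and NK, B or mast cell lists passed the adjusted threshold. At an unadjusted p under 0.05, Cd22 (B cell) and 2 genes each detected on 1 control array alone, Chil3 (monocyte) and Zbtb46 (dendritic), were lower. At the same threshold 8 genes of the neutrophil, T and NK, B and mast cell lists, all detected on no array, were higher. Over all genes the shares were 2.68% lower and 16.8% higher, and genes detected on no array had a median log2 difference of 0.48. Among genes detected on all 8 arrays the smallest p of each list belonged to Ly6c2 (0.07), Siglech (-0.31), Csf3r (-0.26), Cd4 (-0.24), Cd22 (-0.61) and Kit (0.38), with the log2 difference in brackets. Of the islet and vessel lists, the beta, endothelial, ductal and mesenchymal genes held none that passed either threshold; the smallest p fell on Iapp (-0.13) in the beta, Flt1 (-0.09) in the endothelial and Rgs5 (-0.11) in the mesenchymal list. In the alpha and delta list 1 of 8 genes was lower at the unadjusted threshold and none passed the adjusted one.

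Acinar genes varied between arrays of both groups. In the acinar list 1 of 10 genes, the elastase Cela1, was lower at an unadjusted p under 0.05 (log2 difference -0.46, limma adjusted p = 0.129). The share over all genes was 2.68%. The median log2 difference of the acinar list was -0.89. The linear signal summed over the 10 acinar genes was 1229 to 3053 times the 75th percentile on control and 804 to 1982 times on βFbln5KO arrays, and all but Ptf1a were detected on all 8 arrays. On βFbln5KO arrays 1 to 4 the sum was 1353, 804, 820 and 1982 times. Of the 4 lower macrophage genes, Laptm5 and Aif1 were lowest on βFbln5KO arrays 3 and 4, Ptprc on array 4 and H2-Eb1 on array 1. The part of exocrine carry-over in the macrophage values was not tested.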

How the data were processed

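The authors deposited, for each array, scanner output (Agilent Feature Extraction 11.0.1.1) with a processed intensity, background-subtracted and not normalized between arrays, and flags. A second file that the authors deposited, with 35553 probes, holds a ratio per probe and array, made by dividing the processed intensity by 1 number per array. The deposited values are linear; log2 was taken here and the 75th percentile of the array was then subtracted. Outlier-marked values (0.356%) were left out, and repeated spots were averaged to 56605 probes, with 32994 named through RefSeq. The 4 control and 4 βFbln5KO arrays were compared in R 4.3.3 with limma 3.58.1 (eBayes with trend), and p-values were adjusted across the 56605 probes by Benjamini-Hochberg (threshold 0.05). How many arrays there are sets the precision, and p-values measure the spread between these extractions. Python 3.11.15 with matplotlib 3.10.9 made the figures. The fit was tested on simulated data. The members and lists were chosen with earlier results of these data known. Named were all 35 members, Fbln5, the gene with the smallest p of each other list, and the 5 genes on either side of a member past the adjusted threshold (a few of the named results are not reported here); other genes of a list are given as examples chosen after their values were seen. Alternatives were normexp (offset 50, on the median signal), quantile normalization, filters on dim probes, a common floor, eBayes without trend, outlier-marked spots kept, the deposited table, the methods' t-test, the replicate number as a block, each array left out, and the mean of a gene's probes.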

Additional observations from a re-analysis of the deposited data

Results flagged for a closer look

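Of 70 groups of 4 arrays (35 genes in 2 groups), 4 held 1 array far from the other 3; chance alone gives about 1 in 20. By its brightest probe, Cd86 read -2.48 on βFbln5KO array 4 and -5.14 to -4.97 on the other βFbln5KO arrays, and that probe was detected there alone in that group. Another Cd86 probe was detected on βFbln5KO array 3 alone, at -1.52. Cd163 read -5.01 on βFbln5KO array 4 and -6.40 to -6.23 on the other 3, detected on none of them. Vsig4 read -5.03 on control array 2 and -7.20 to -6.96 on the other control arrays, again undetected on all. Cd74 read 3.03 on βFbln5KO array 4 and 3.16 to 3.17 on the other 3, a small gap on a bright probe. Of these 4, 3 fell on βFbln5KO array 4, the array on which the hepatocyte genes stood apart and on which Fbln5 lay inside the control range.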

How the results depend on the processing

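The count of members higher at the adjusted threshold was 1 (Cd5l). It was 0 with normexp, with the filter on dim probes, with only probes detected on all 8 arrays (chosen after seeing the data), with the common floor and with the deposited table. With eBayes without trend it was 2 (Cd5l and Timd4), where 6184 of 56605 probes passed as higher, against 5 in the main fit. No member was lower at that threshold under any alternative. The count higher at an unadjusted p under 0.05 was 2; it was 1 with normexp, quantile normalization or the deposited table and 0 with either filter or the common floor. Both filters leave Cd5l and Timd4 untested. The count lower was 4, and 1 (H2-Eb1) with quantile normalization. It was 3 with either filter, the common floor, eBayes without trend, outlier-marked spots kept, the deposited table or the replicate block. With normexp or the methods' t-test it was 4, and with the mean of a gene's probes 5. The members changed too. Aif1 stayed with normexp, the replicate block and the mean of probes, but with none of the other settings just named. Csf1r or Cybb entered under some of them. The log2 difference of Cd5l was 0.50 with normexp, 0.0033 with the common floor, and 2.52 with the deposited table (adjusted p = 0.143); 2.37 with quantile normalization kept the call. With 1 array left out at a time, the Cd5l difference was 2.47 to 2.56, the counts were 0 to 2 and 0 at the adjusted threshold and 2 to 3 higher and 0 to 4 lower at the unadjusted one, and the median log2 difference of the members was -0.07 to -0.04. With the replicate block the counts were 0 and 0 adjusted and 2 and 3 unadjusted, and the Cd5l difference was 2.51 (adjusted p = 0.219). Same-numbered arrays had correlations of their deviations of 0.20, 0.29, -0.23 and -0.02. These values cannot tell whether same-numbered samples were prepared together, and the labels do not say. Without βFbln5KO array 4, 11206 probes passed as higher against 5 with it, and Timd4 was among them. Of the 26 members detected on all 8 arrays, 0 to 4 changed sign under an alternative. Dim signals limit what can be said of Cd5l, Timd4, Vsig4, Marco, Spi1 and Cd163.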
